A study of Homo sapiens with 27 samples.

Results

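The HOX genes described here are the 38 gene symbols in the count tables of 3 human prostate cancer lines that are made of HOX, a cluster letter from A to D and a number. They are 38 of 27546 symbols, taken by a rule on the name. On the human genome build GRCh38, with the gene models of GENCODE release 29, 11 lie in the HOXA cluster on chromosome 7, 9 in HOXB at chr17:48528526-48729178, 9 in HOXC at chr12:53938765-54056030 and 9 in HOXD at chr2:176092891-176190907. In these models HOXC5 is a processed transcript, and the others are protein-coding genes. HOXB1, which lies at the end of the HOXB cluster, was in none of the tables and was not analysed here. A symbol that a table did not list was taken as 0 counts in that line, which applied to HOXD1 and HOXD11 in 22Rv1, to HOXD3 and HOXD4 in DU145 and to HOXB7, HOXD9, HOXD10 and HOXD11 in PC3. The other 31 members were listed for every line. Symbols with a mean of at least 100 counts in both other lines but missing from a table numbered 3 in 22Rv1, 22 in DU145 and 17 in PC3. A 0 taken for a missing symbol is therefore not a measured value.

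HOX genes encode homeodomain transcription factors that set position along the body axis in the embryo, and their order along each cluster follows the order of the body regions in which they act. Members with low numbers act towards the head and members with high numbers towards the tail, and adult cells often keep the combination that fits their place of origin. HOXB13, the member at the tail end of HOXB, is a lineage factor of prostate epithelium, and the high-numbered HOXA and HOXD genes shape the developing urogenital tract.

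RNA was sequenced from 27 libraries of 22Rv1, DU145 and PC3 cells, which are established prostate cancer lines, in 9 groups of 3 libraries. In each line the control group carried the control guide RNA #1 and had the genotype label WT, and a pair of groups had the genotype label RIPK2 knockout. RIPK2 is a kinase that relays signals from the bacterial sensors NOD1 and NOD2. The knockout groups carried gRNA 1 or gRNA 10 in 22Rv1, and gRNA 2 or gRNA 10 in DU145 and in PC3. No other agent was named, and the labels do not say whether a knockout group was clonal or a mixed population of edited cells, nor whether the 3 libraries of a group came from separate cultures, so the p-values below measure the spread between these libraries only.

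The libraries held 17958558 to 20650819 counts each. Levels are given as CPM, counts scaled to a library of fixed size, where 3 counts correspond to 0.140 to 0.172 CPM. RIPK2 was at 16.1 ± 1.11 CPM (SD, n = 3) in 22Rv1 control against 8.35 ± 0.579 with gRNA 1 and 5.25 ± 0.179 with gRNA 10. It was at 41.3 ± 2.66 in DU145 control against 11.5 ± 1.73 with gRNA 2 and 33.8 ± 1.51 with gRNA 10, and at 64.4 ± 1.83 in PC3 control against 21.9 ± 0.908 and 28.8 ± 1.59. The groups did not overlap in any line, and the smallest distance was that of DU145 gRNA 10. Those that differed most from their own groups were a pair, the library labelled 22Rv1 gRNA 1 replicate 3, with 16.7% mitochondrial counts against 0.515% to 4.69% in the other 26, and the library labelled DU145 gRNA 2 replicate 3, with 2.89% against 1.75% and 2.12% in its group. Some results that rest on them are given with and without them, and others by library. Epithelial markers (KRT8, KRT18, EPCAM and CDH1) were present in every group, but their sum was higher in every knockout group than in its control: 951 to 971 CPM with gRNA 1 and 1019 to 1049 with gRNA 10 against 786 to 857 in 22Rv1, 1443 to 2759 with gRNA 2 and 1392 to 1501 with gRNA 10 against 774 to 820 in DU145, and 971 to 1031 with gRNA 2 and 1734 to 1870 with gRNA 10 against 782 to 811 in PC3. The part of this in the HOX differences below was not tested. The 8 prostate luminal markers summed to 1441 to 1503 CPM in 22Rv1 control but to 30.9 to 33.7 in DU145 control and 47.0 to 48.4 in PC3 control. Immune markers summed to at most 2.95 CPM in any library.

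The 250 bases before the RefSeq start of HOXA10, HOXA11 and HOXD8 are shown because these members had large opposed changes between lines or guides among those for which a sequence was at hand. RefSeq starts can differ from the gene models above. The HOXA10 window lies inside the GENCODE span of that gene, 27170591 to 27180261, and the HOXD8 window ends just inside that of HOXD8, which begins at 176129694. They come from RefSeq on GRCh38.p14, 5′ to 3′ on the strand of the gene, at chr7:27179862-27180111 (minus strand), chr7:27185233-27185482 (minus strand) and chr2:176129455-176129704 (plus strand), and 19 of the 38 members had such an entry. Capitals mark matches, on either strand, to the TATA-box letters TATAAA, the CCAAT box, CAATAAA and the HOX and PBX motif TGATTNAT.
HOXA10: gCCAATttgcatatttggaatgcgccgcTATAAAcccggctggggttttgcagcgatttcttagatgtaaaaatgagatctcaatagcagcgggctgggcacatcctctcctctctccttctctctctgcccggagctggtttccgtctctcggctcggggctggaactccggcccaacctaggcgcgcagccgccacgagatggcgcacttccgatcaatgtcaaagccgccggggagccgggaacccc
HOXA11: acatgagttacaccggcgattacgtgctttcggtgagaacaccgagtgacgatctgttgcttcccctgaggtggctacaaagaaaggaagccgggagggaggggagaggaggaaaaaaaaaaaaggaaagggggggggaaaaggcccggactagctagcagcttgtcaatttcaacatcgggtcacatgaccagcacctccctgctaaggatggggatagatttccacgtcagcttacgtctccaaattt
HOXD8: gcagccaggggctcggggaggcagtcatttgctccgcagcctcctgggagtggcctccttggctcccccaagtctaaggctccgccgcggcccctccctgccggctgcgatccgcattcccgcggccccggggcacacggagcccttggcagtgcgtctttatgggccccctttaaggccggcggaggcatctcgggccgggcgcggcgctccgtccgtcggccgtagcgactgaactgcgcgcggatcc
HOXA10 held 1 match to TATAAA and 1 to CCAAT, while HOXA11 and HOXD8 held none of the 4 motifs in this window. CCAAT was in 16 of the 19 HOX windows (84.2%) against 33.0% of the 27305 RefSeq windows of that length, and TATAAA in 4 (21.1%) against 11.1%; HOXC4 and HOXC5 share 1 window. The median number of CG pairs was 21 in the HOX windows and 11 in all. A match is a description of letters and not a measured binding site.

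In the control libraries each line transcribed its own set of HOX genes. A member was called on where every library of a group had more than 3 counts, off where none did, and mixed otherwise. By this rule 29 members were on in 22Rv1 control, 29 in DU145 control and 18 in PC3 control, while 5, 7 and 12 were off. The members on in every control numbered 14: HOXA3, HOXA5, HOXA6, HOXA9, HOXA10, HOXA13, HOXB3, HOXB4, HOXB5, HOXB6, HOXC4, HOXC6, HOXC9 and HOXC13. A further 11 were on in 22Rv1 and DU145 but not in PC3, among them HOXB7, HOXB8, HOXB9, HOXC8, HOXC10, HOXC11, HOXD8 and HOXD9. HOXA4, HOXB13 and HOXD13 were on in 22Rv1 and PC3 but not in DU145, HOXA11 in DU145 and PC3 alone, HOXC12 in 22Rv1 alone, and HOXB2, HOXC5 and HOXD1 in DU145 alone. HOXD3, HOXD4, HOXD10, HOXD11 and HOXD12 were on in no control.

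**Figure D1:**
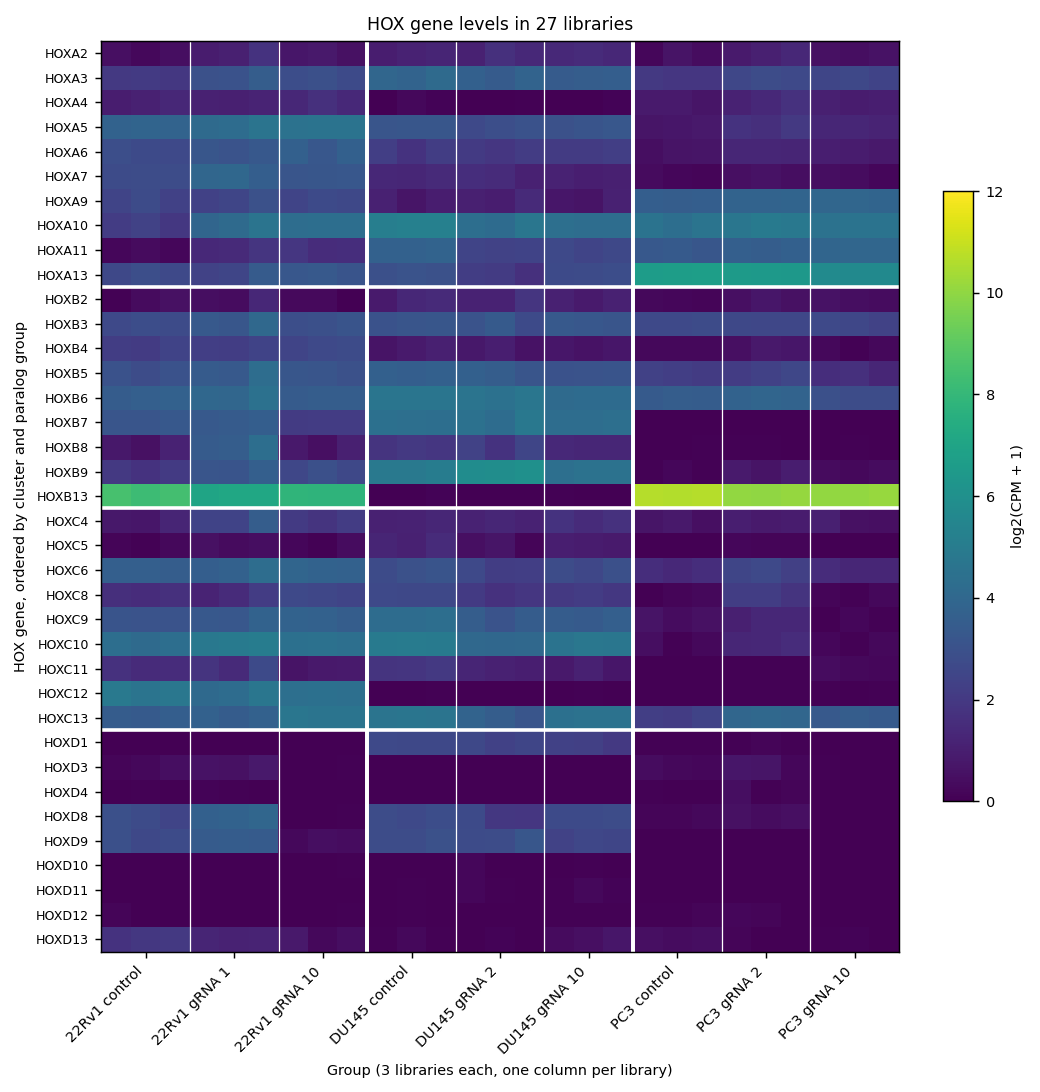
Level of 37 of the 38 HOX genes (rows, by cluster) in each of the 27 libraries (columns, by line and guide), as log2(CPM + 1) in color. HOXB13 is bright in 22Rv1 and PC3 and dark in DU145, and most of HOXC and HOXD is dark in the PC3 columns.

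The leading member differed between lines. Per kilobase of exon, which is the scale on which genes can be set beside each other, HOXB13 led in 22Rv1 control with 96.5 ± 8.90 CPM per kb, followed by HOXC10 with 7.94 ± 0.591 and HOXC12 with 7.80 ± 0.583. In DU145 control the highest were HOXB7 with 13.0 ± 0.381 CPM per kb, HOXC10 with 12.6 ± 0.456 and HOXB9 with 11.4 ± 0.913. In PC3 control HOXB13 led with 462 ± 9.20 CPM per kb, followed by HOXA13 with 20.1 ± 0.616 and HOXA10 with 5.84 ± 0.624. HOXB13 alone made up 65.4% of all HOX counts in 22Rv1 control and 90.1% in PC3 control, but 0.0100% in DU145 control.

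HOXB13 separated DU145 from the other lines and was lower in the RIPK2 knockout groups of both lines that transcribe it. Its counts were 6879, 5823 and 6688 in the 22Rv1 control libraries, 30571, 29596 and 30415 in PC3 control and 0, 0 and 2 in DU145 control. PC3 control stood above 22Rv1 control with no overlap, at 1603 ± 31.9 CPM against 334 ± 30.8 (log2 difference 2.26, SE 0.10, adjusted p = 1.53e-16, edgeR's quasi-likelihood test with Benjamini-Hochberg adjustment, as for every adjusted p below). Set against the floor of 3 counts per library, DU145 control was at least 2375-fold lower than 22Rv1 control, and PC3 control at least 11386-fold higher than DU145 control.

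With gRNA 1 the 22Rv1 libraries held 2519, 2702 and 2472 HOXB13 counts, and with gRNA 10 they held 4516, 4440 and 4421. Both groups lay below every control library, and gRNA 1 below gRNA 10. HOXB13 fell by 1.28 on the log2 scale with gRNA 1 (SE 0.09, adjusted p = 1.56e-06) and by 0.59 with gRNA 10 (SE 0.09, adjusted p = 0.000369) in edgeR's test, and the groups differed from each other by 0.69 (adjusted p = 0.000175). In PC3 the libraries held 20126, 19929 and 20718 counts with gRNA 2 and 21033, 20975 and 22075 with gRNA 10, all below the control libraries. The fall was 0.59 (SE 0.03, adjusted p = 8.89e-16) and 0.55 (SE 0.03, adjusted p = 2.63e-15). In DU145 the highest count of any library was 2, so that a change with either guide was not detectable there. The luminal marker sum moved as well, from 1441 to 1503 CPM in 22Rv1 control to 829 to 868 with gRNA 1 and 1259 to 1288 with gRNA 10. Of the 8 markers, 0 were called higher and 6 lower with gRNA 1 in edgeR. With gRNA 10 they split, 3 higher and 4 lower. Of all genes, 48.5% and 40.6% changed with these guides. In PC3 the sum was higher with gRNA 2, at 78.0 to 81.9, and with gRNA 10, at 243 to 260, than in control. The part of the luminal markers in the HOXB13 differences was not tested. In bulk RNA fewer cells that transcribe a gene and less RNA per cell cannot be told apart.

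**Figure D2:**
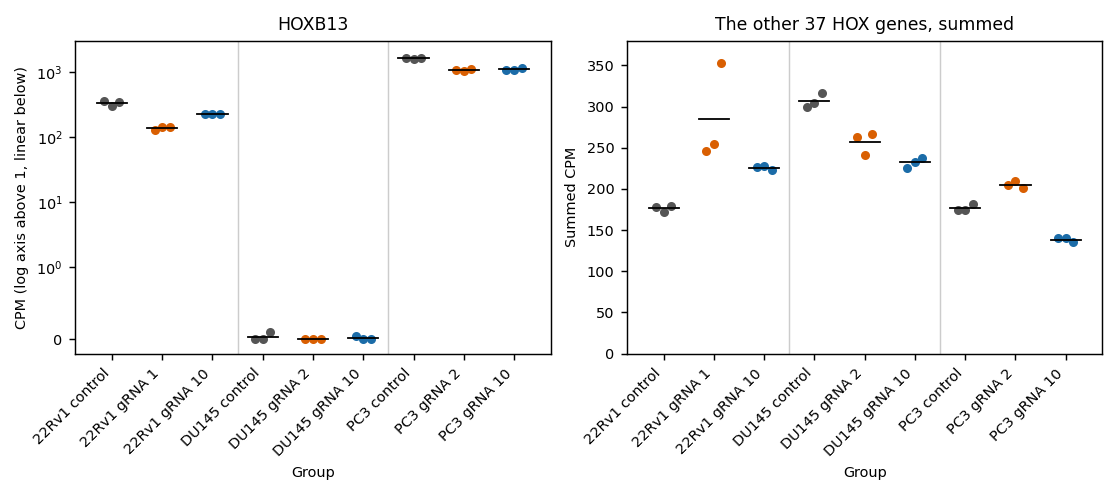
Left, HOXB13 level in CPM in each library of the 9 groups, on an axis that is logarithmic above 1 and linear below. Right, summed CPM of the other 37 HOX genes in the same libraries. HOXB13 falls with each guide in 22Rv1 and PC3, while within 22Rv1 the summed level of the others is highest with gRNA 1 (246 to 353 CPM).

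Together, the other 37 HOX genes were lower along with HOXB13 in PC3 with gRNA 10, but did not follow it in 22Rv1 or in PC3 with gRNA 2. The summed level of these 37 was 176 ± 4.07 CPM in 22Rv1 control, 285 ± 59.7 with gRNA 1 and 226 CPM with gRNA 10. Both knockout groups lay above every control library. The gRNA 1 libraries were at 246, 254 and 353 CPM, the last being replicate 3, which stood apart. In DU145 it was 307 ± 8.71 CPM in control, 257 ± 13.9 with gRNA 2 and 232 ± 6.03 with gRNA 10, both below every control library. In PC3 it was 177 ± 3.81 CPM in control, 205 ± 4.62 with gRNA 2 and 138 ± 2.87 with gRNA 10, on either side of control. Since the denominator of the share of HOX counts held both changes, the HOXB13 share in 22Rv1 was 65.4% ± 1.66 in control, 32.8% ± 3.67 with gRNA 1 and 49.8% ± 0.270 with gRNA 10. The gRNA 1 libraries had shares of 34.3%, 35.5% and, in replicate 3, 28.6%.

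Among the HOXA genes towards the tail end of the cluster, HOXA11 and HOXA13 were each set apart in 1 line. HOXA11, which patterns the uterus and limbs, had 3, 5 and 3 counts in 22Rv1 control against 265, 264 and 280 in DU145 and 167, 180 and 155 in PC3, so that 22Rv1 was the low line. HOXA13, the tail-end member needed for the urogenital sinus, had 1859, 1939 and 1991 counts in PC3 control, against 98, 125 and 104 in 22Rv1 and 141, 157 and 147 in DU145. PC3 was higher than 22Rv1 by 4.18 (SE 0.19, adjusted p = 3.04e-17 in edgeR) and higher than DU145 by 3.88 (SE 0.18, adjusted p = 1.26e-16).

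HOXA10, beside HOXA11, was at 3.47 ± 0.619 CPM in 22Rv1 control, 35.4 ± 1.49 in DU145 and 21.6 ± 2.31 in PC3, and the 3 groups did not overlap. HOXA9 ran otherwise, with 4.76 ± 0.903 CPM in 22Rv1 control, 0.908 ± 0.282 in DU145 and 10.9 ± 0.223 in PC3, PC3 being higher than DU145 by 3.57 (SE 0.23, adjusted p = 1.27e-13 in edgeR). HOXA5 was highest in 22Rv1, at 13.1 ± 0.578 CPM, against 8.17 ± 0.181 in DU145 and 0.655 ± 0.0789 in PC3. As a sum the cluster stood at 44.0 ± 2.29 CPM in 22Rv1 control, 103 ± 2.68 in DU145 control and 149 ± 3.30 in PC3 control, where HOXA13 contributed 102 ± 3.14.

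In the HOXB cluster the middle members were shared and the members next to HOXB13 were not. HOXB3, HOXB5 and HOXB6 were on in all 9 groups. HOXB7 had 150, 154 and 171 counts in 22Rv1 control and 439, 425 and 406 in DU145 control. It was not listed for PC3 and was taken as 0 there. With that 0 set at the floor, PC3 control was at least 51.4-fold lower than 22Rv1 and at least 125-fold lower than DU145. HOXB9 had 57, 46 and 61 counts in 22Rv1 control, 603, 597 and 674 in DU145 and 1, 3 and 1 in PC3, which put PC3 at least 17.8-fold below 22Rv1 and at least 184-fold below DU145. HOXB8 was lower in level but followed the same order, with 14, 9 and 23 counts in 22Rv1, 53, 65 and 58 in DU145 and 0, 0 and 1 in PC3. PC3 control thus had the highest HOXB13 level of the 3 lines and at most 3 counts per library of HOXB8 and HOXB9, with HOXB7 not listed.

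The HOXC cluster was low in PC3. It summed to 78.4 ± 4.20 CPM in 22Rv1 control and 88.7 ± 2.58 in DU145 control, but to 7.01 ± 0.749 in PC3 control. Of its 9 members 8 were lower in PC3 control than in 22Rv1 control, and 8 than in DU145 control, with none higher. Of all genes, 41.9% and 38.3% were lower. Members such as HOXC11 and HOXC12, with no count in PC3 control, passed the filter on low counts through groups where they were high. Their direction was thus fixed, and nothing is read from these counts. HOXC10 had 374, 329 and 370 counts in 22Rv1 control, 610, 655 and 615 in DU145 and 7, 1 and 4 in PC3, so PC3 lay below both by −6.40 (SE 0.21, adjusted p = 5.96e-20) and −7.07 (SE 0.21, adjusted p = 6.77e-21) in edgeR. HOXC11 had 43, 35 and 37 counts in 22Rv1, 53, 57 and 63 in DU145 and none in PC3, which was at least 12.5-fold lower than 22Rv1. HOXC13, the tail-end member known for its part in hair and nail keratins, was at 3.81 ± 0.487 CPM in PC3, below the other lines, at 10.3 ± 0.705 in 22Rv1 and 23.7 ± 0.543 in DU145.

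HOXC12 was a 22Rv1 gene in these libraries. It had 533, 465 and 510 counts in 22Rv1 control, 0, 0 and 1 in DU145 control and none in PC3 control, and no library of DU145 or PC3 with any guide had more than 1 count. Against the floor DU145 was at least 185-fold and PC3 at least 163-fold lower than 22Rv1. Its neighbours HOXC11 and HOXC13, on either side of it, were on in DU145. With gRNA 1 the 22Rv1 libraries held 321, 350 and 441 HOXC12 counts and did not pass the test, whereas without replicate 3 the change was −0.59 (adjusted p = 0.000186 in edgeR). With gRNA 10 they held 391, 404 and 390, a fall of −0.40 (adjusted p = 0.0478) that was lost under several alternatives.

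Of the HOXD genes, HOXD8 and HOXD9 marked 22Rv1 and DU145, HOXD1 marked DU145 and HOXD13 marked 22Rv1. HOXD8 had 126, 109 and 87 counts in 22Rv1 control and 125, 113 and 130 in DU145, which overlap, and 2, 2 and 4 in PC3. HOXD9 had 125, 98 and 112, then 125, 125 and 143, and none in PC3, which was at least 36.3-fold below 22Rv1 and at least 38.6-fold below DU145. HOXD1, at the head end, had 114, 110 and 106 counts in DU145 control, none in 22Rv1 and 1 in each PC3 library, so DU145 was at least 33.3-fold above 22Rv1 and at least 32.4-fold above PC3. HOXD13, a factor of limb and urogenital patterning, had 45, 55 and 57 counts in 22Rv1 control, 1, 4 and 1 in DU145 and 8, 6 and 7 in PC3. HOXD10 and HOXD12 were off in all 9 groups.

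Over the members that passed the filter on low counts, 34 of 38 in the fit of all libraries, 29 differed between DU145 control and 22Rv1 control, 18 higher in DU145 and 11 lower, where 75.9% of the 17356 genes tested differed (37.2% higher and 38.7% lower). Between PC3 control and 22Rv1 control 26 differed, 6 higher in PC3 and 20 lower, against 80.4% of all genes (38.5% higher and 41.9% lower). Between PC3 and DU145 controls 33 differed, 6 higher in PC3 and 27 lower, against 74.9% of all genes (36.6% higher and 38.3% lower). A member that passed the filter only through the line where it was high, such as HOXB7, HOXC12, HOXD1 or HOXD9, had to differ, so nothing is read from these counts or from the sizes that follow, which describe the members that passed. The median absolute log2 difference was 1.79 for the HOX genes against 0.91 for all genes between DU145 and 22Rv1, 3.37 against 1.13 between PC3 and 22Rv1, and 3.33 against 0.90 between PC3 and DU145. At a difference of 2-fold or more the HOX counts were 23, 25 and 30 of 34, where 44.9%, 51.8% and 43.7% of all genes met that rule.

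The 6 members higher in PC3 than in 22Rv1 were HOXA9, HOXA10, HOXA11, HOXA13, HOXB13 and HOXD1, and those higher than in DU145 were HOXA4, HOXA9, HOXA13, HOXB13, HOXD3 and HOXD13. The HOXD1 call rests on 1 count per PC3 library against none in 22Rv1 (adjusted p = 0.0492 in edgeR) and was lost under some alternatives. HOXD3 was not listed for DU145, so it was taken as 0 there, and it was mixed in PC3 control. Its largest difference between control lines was 0.30 on the log2(CPM + 1) scale, so that call is near the floor too. The HOXD13 difference between PC3 and DU145 was 1.92 (adjusted p = 0.0129 in edgeR), and the call was lost without DU145 control replicate 1 (adjusted p = 0.0527) or replicate 3 (adjusted p = 0.0514) and with a replicate block (adjusted p = 0.258). The spans of 22 members overlap another HOX gene on the same strand, in 16 pairs such as HOXA9 and HOXA10, HOXB7 and HOXB9, and HOXC4 and HOXC6, so how shared exons were assigned could not be seen and values of these members are uncertain to that extent.

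In 22Rv1 both RIPK2 guides went with higher HOXA levels, and HOXD8 and HOXD9 changed in opposite directions. With gRNA 1, 20 of the 30 members tested changed, 18 higher and 2 lower, where 48.5% of all genes changed (25.6% higher and 22.9% lower). With gRNA 10, 19 changed, 12 higher and 7 lower, against 40.6% of all genes (20.0% higher and 20.6% lower). At 2-fold or more 12 changed with each guide, where 17.2% and 14.7% of all genes did. Between the guides 17 differed, 3 higher and 14 lower with gRNA 10, against 35.6% of all genes (16.8% higher and 18.8% lower; 13.0% at 2-fold or more). The counts against control were 20 and 22 without the gRNA 1 library that stood apart, a setting chosen after seeing the data. The guides share their control libraries, so their calls are not independent of each other. With both guides 10 members were higher, among them HOXA3, HOXA5, HOXA6, HOXA7, HOXA10, HOXA11, HOXB9, HOXC4 and HOXC9, where 12.4% of all genes were higher with both, and HOXB13 and HOXD13 were lower, where 12.3% were. In the HOXA cluster 8 of 11 members rose with gRNA 1 and 7 with gRNA 10, and none fell with either. The HOXC9 change with gRNA 1 was 0.44 (adjusted p = 0.0406 in edgeR), and the call was lost under most alternatives tried, among them without the library that stood apart (0.24, adjusted p = 0.104) and without any 1 of the control libraries (adjusted p = 0.0855, 0.0914 and 0.0984). HOXA2 and HOXA11 passed the filter only through knockout groups, so that their direction was fixed by the filter. The HOXA counts above therefore hold members that could only rise.

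HOXA10 and HOXA11 had the largest changes of the HOXA cluster in 22Rv1. HOXA10 had 65, 80 and 56 counts in control, 273, 323 and 407 with gRNA 1 and 365, 386 and 386 with gRNA 10, with no overlap between control and knockout libraries. It rose by 2.38 (SE 0.20, adjusted p = 6.09e-06) and 2.44 (SE 0.20, adjusted p = 5.19e-06) in edgeR. HOXA11 went from 3, 5 and 3 counts to 32, 32 and 46 and to 54, 38 and 40, a rise of 3.34 (SE 0.36, adjusted p = 3.79e-05) and 3.49 (SE 0.36, adjusted p = 2.65e-05), again with no overlap. HOXA3 rose by 1.45 and 1.01, with 56, 60 and 56 counts in control and 107 to 183 in the knockout libraries, and HOXA7 by 1.22 and 0.48, with 111, 115 and 116 counts in control and 161 to 295 in the knockout libraries. Without gRNA 1 replicate 3 the changes with gRNA 1 were 2.14 for HOXA10, 3.08 for HOXA11, 1.22 for HOXA3 and 1.34 for HOXA7, each still past the threshold. The HOXA7 call with gRNA 10 (adjusted p = 0.0206 in edgeR) was lost without control replicate 1 or 3 and without any 1 of the gRNA 10 libraries (adjusted p = 0.0514 to 0.0657).

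A pair of neighbouring HOXD genes parted the 2 knockout groups of 22Rv1. HOXD8 had 126, 109 and 87 counts in control, 235, 243 and 255 with gRNA 1 and 0, 0 and 1 with gRNA 10. It rose by 1.24 with gRNA 1 (SE 0.19, adjusted p = 0.000349 in edgeR) and with gRNA 10 was at least 36.8-fold lower than control (adjusted p = 2.42e-07), a change from on to off. HOXD9 had 125, 98 and 112 counts in control, 191, 195 and 170 with gRNA 1 and 4, 7 and 6 with gRNA 10, a rise of 0.78 (SE 0.15, adjusted p = 0.00137) and a fall, at −4.32 (SE 0.22, adjusted p = 1.31e-07). HOXD13, at the tail end of the cluster, fell with both, from 45, 55 and 57 counts to 27, 23 and 23 (−1.05, SE 0.30, adjusted p = 0.0147 in edgeR) and to 15, 4 and 7 (−2.63, SE 0.35, adjusted p = 0.000155). Without control replicate 2 the HOXD13 call with gRNA 1 was lost (adjusted p = 0.0515). The whole cluster summed to 14.3 ± 1.15 CPM in 22Rv1 control, 24.9 ± 1.43 with gRNA 1 and 0.788 ± 0.210 with gRNA 10. The antisense RNA HOXD-AS2 went the same way, with 38, 28 and 22 counts in control, 56, 58 and 56 with gRNA 1 and 0 in each gRNA 10 library. LNPK, which flanks HOXD and is not a HOX gene, was at 38.5 CPM in control and at 38.8 with gRNA 10.

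Some members changed with 1 guide of 22Rv1 only by the test, and the difference between guides was tested as well. HOXB8 had 14, 9 and 23 counts in control, 191, 207 and 335 with gRNA 1 and 15, 8 and 22 with gRNA 10. It rose by 4.05 with gRNA 1 (SE 0.39, adjusted p = 1.62e-05 in edgeR; 3.68 without replicate 3), was at −0.09 with gRNA 10 (adjusted p = 0.906), and differed between the guides by −4.14 (SE 0.39, adjusted p = 2.25e-05). HOXB7, its neighbour, had 150, 154 and 171 counts in control, 180, 191 and 193 with gRNA 1 and 64, 66 and 68 with gRNA 10, a fall with gRNA 10 of 1.32 on the log2 scale (SE 0.13, adjusted p = 2.3e-05). HOXC13 rose with gRNA 10 from 198, 186 and 213 counts to 507, 471 and 470 (1.22, SE 0.11, adjusted p = 1.11e-05), while the gRNA 1 libraries held 238, 200 and 214. HOXC8 likewise rose with gRNA 10, from 40, 36 and 43 counts to 103, 96 and 91 (1.23, SE 0.28, adjusted p = 0.00525). HOXC4 rose with both, from 14, 13 and 26 counts to 86, 84 and 186 (2.81; 2.25 without replicate 3) and to 61, 49 and 67 (1.68).

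**Figure D3:**
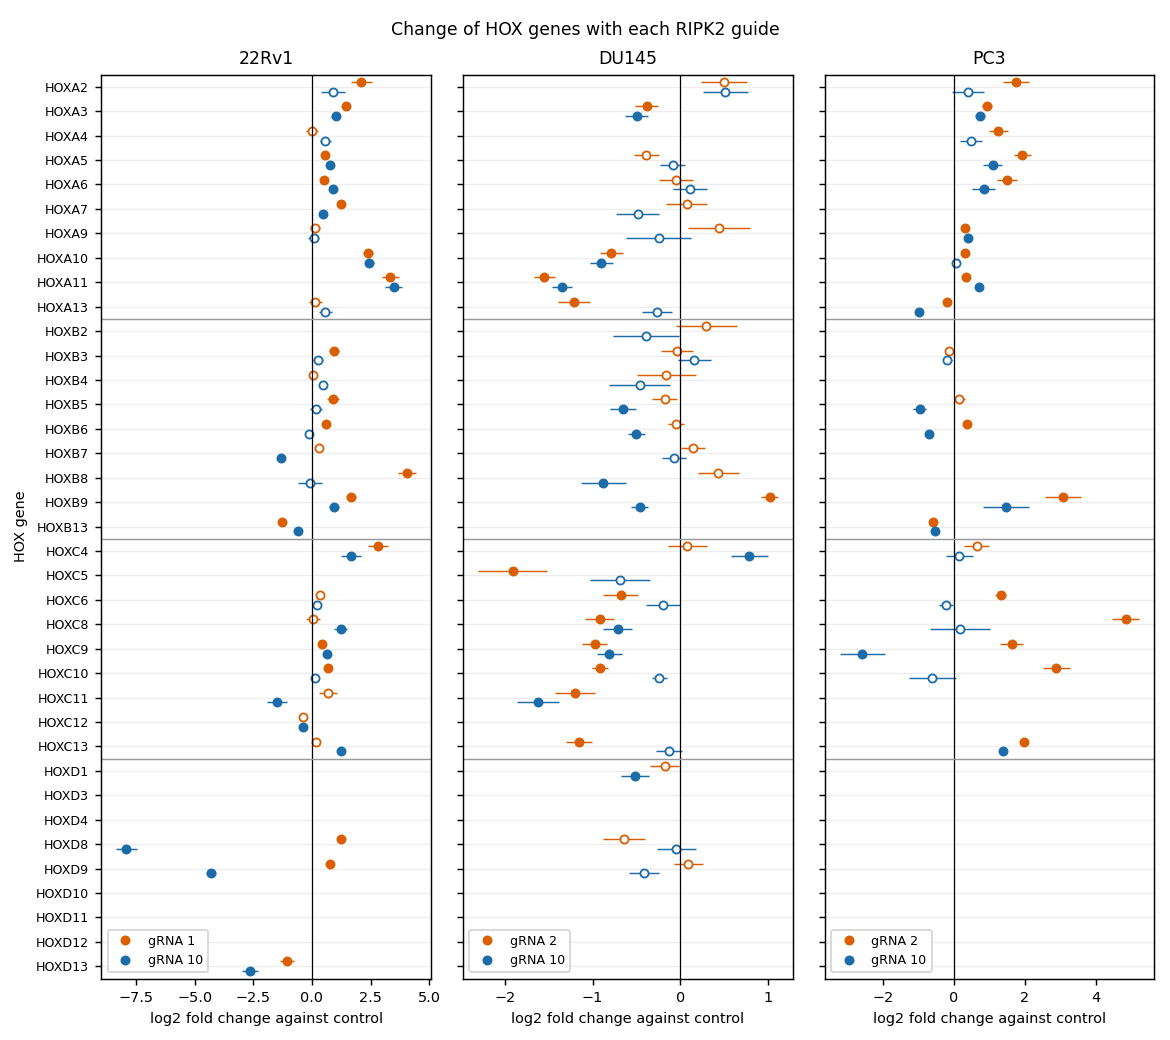
Log2 fold change (dot) with its standard error (line) of the tested HOX genes, 1 left out, against the control of its line, for each RIPK2 guide; filled dots have an adjusted p below 0.05 in edgeR, and the axes of the 3 panels differ in range. Most filled HOXA dots lie to the right of 0 in 22Rv1 and PC3 and all lie to the left of it in DU145, and HOXD8 and HOXD9 split by guide in 22Rv1.

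In DU145 the changes were fewer and mostly downward, and with gRNA 10 the share of members called was near that of all genes. With gRNA 2, 12 of 29 members tested changed, 1 higher and 11 lower, where 34.0% of all genes changed (17.1% higher and 17.0% lower). With gRNA 10, 12 changed, 1 higher and 11 lower, against 40.0% of all genes (20.2% higher and 19.8% lower). At 2-fold or more 6 changed with gRNA 2 and 2 with gRNA 10, where 8.81% and 11.0% of all genes did. Between the guides 10 differed, 5 higher and 5 lower with gRNA 10, against 38.8% of all genes (19.6% higher and 19.2% lower; 11.1% at 2-fold or more). Without the gRNA 2 library that stood apart the counts against control were 13 and 16. HOXA3, HOXA10, HOXA11, HOXC8, HOXC9 and HOXC11 were lower with both guides, where 8.02% of all genes were, and none was higher with both, where 8.05% were. The groups share their control libraries. The HOXA3 change with gRNA 2 was −0.38 (adjusted p = 0.0491 in edgeR) and was lost under most alternatives tried, and with gRNA 10 its call was lost without control replicate 3 (adjusted p = 0.0715) or gRNA 10 replicate 1 (adjusted p = 0.0613). In the HOXC cluster 7 of 8 tested members fell with gRNA 2, of which the HOXC6 call was lost under some alternatives, and 3 with gRNA 10. The gRNA 10 calls of HOXB8, HOXD1 and HOXC4, the member called higher, were each lost in several fits with a library left out.

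HOXA11 had 265, 264 and 280 counts in DU145 control, 92, 88 and 81 with gRNA 2 and 107, 94 and 105 with gRNA 10, all below control, and fell by 1.55 (SE 0.12, adjusted p = 1.29e-05 in edgeR) and by 1.35 (SE 0.12, adjusted p = 1.78e-05) on the log2 scale. HOXA10 had 723, 784 and 754 counts in control, 395, 363 and 472 with gRNA 2 and 406, 379 and 382 with gRNA 10, and fell by 0.79 (SE 0.13, adjusted p = 0.00158) and by 0.90 (SE 0.13, adjusted p = 0.000466). The same pair of genes had risen in 22Rv1. HOXC11 had 53, 57 and 63 counts in control, 28, 24 and 19 with gRNA 2 and 16, 24 and 14 with gRNA 10, and fell by 1.20 (SE 0.23, adjusted p = 0.00278) and by 1.62 (SE 0.24, adjusted p = 0.000411).

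HOXB9 went opposite ways with the guides of DU145. It had 603, 597 and 674 counts in control, 1172, 1212 and 1194 with gRNA 2 and 412, 447 and 452 with gRNA 10, with no overlap among the groups. It rose by 1.02 (SE 0.09, adjusted p = 4.14e-05 in edgeR) with gRNA 2 and fell by 0.46 (SE 0.09, adjusted p = 0.00322) with gRNA 10. HOXC13 and HOXA13 fell with gRNA 2, from 499, 521 and 494 counts to 272, 227 and 148 (−1.15, SE 0.15, adjusted p = 0.000391) and from 141, 157 and 147 to 74, 68 and 40 (−1.22, SE 0.18, adjusted p = 0.000773). Replicate 3 of gRNA 2 was the lowest for both; without it the changes were −0.98 and −1.03, still past the threshold. HOXB7, the leading member of DU145, had 439, 425 and 406 counts in control, 435, 381 and 501 with gRNA 2 and 375, 383 and 406 with gRNA 10, and did not pass the test with either guide. HOXB13 and HOXC12, off in DU145 control, stayed at or under 3 counts in every DU145 knockout library.

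In PC3 most genes changed with either guide, and HOXC8, HOXC9 and HOXC10 were high enough for a test only with gRNA 2. With gRNA 2, 18 of 21 members tested changed, 16 higher and 2 lower, where 63.6% of all genes changed (32.1% higher and 31.5% lower). With gRNA 10, 13 changed, 8 higher and 5 lower, against 73.5% of all genes (37.9% higher and 35.6% lower). At 2-fold or more 11 members changed with gRNA 2, all higher, where 10.5% of all genes met that rule, and 5 with gRNA 10, where 17.2% did. Some of them, such as HOXB9, HOXC8, HOXC9 and HOXC10, passed the filter only through the gRNA 2 group where they were high. Their direction was thus fixed by the filter, and nothing is read from these counts or from those between the guides. Between the guides 15 differed, 1 higher and 14 lower with gRNA 10, against 73.4% of all genes (36.9% higher and 36.5% lower; 17.8% at 2-fold or more). With both guides 8 members were higher (17.9% of all genes) and 2 were lower, HOXA13 and HOXB13 (16.3%), against the same control libraries. No HOXD gene passed the filter in PC3.

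HOXC8 had 0, 2 and 4 counts in PC3 control, 69, 68 and 47 with gRNA 2 and 2, 1 and 4 with gRNA 10. It rose by 4.84 with gRNA 2 (SE 0.39, adjusted p = 3.82e-12 in edgeR), was at 0.17 with gRNA 10 (adjusted p = 0.866), and differed between the guides by −4.68 (SE 0.37, adjusted p = 2.1e-12). HOXC10 had 7, 1 and 4 counts in control, 28, 29 and 35 with gRNA 2 and 3, 1 and 4 with gRNA 10, and rose by 2.89 with gRNA 2 (SE 0.37, adjusted p = 7.07e-08). HOXC9 had 10, 6 and 9 counts in control, 21, 29 and 29 with gRNA 2 and 0, 3 and 1 with gRNA 10, a rise of 1.63 (SE 0.32, adjusted p = 5.96e-05) and a level at least 2.89-fold lower (adjusted p = 0.00065). HOXC8, HOXC9 and HOXC10 passed the filter only through gRNA 2, so their higher level with that guide was fixed by the filter. Nothing is read from the p-values of their gRNA 2 differences. HOXC6, between HOXC5 and HOXC8, had 37, 30 and 38 counts in control, 91, 99 and 74 with gRNA 2 and 36, 29 and 28 with gRNA 10, and rose by 1.31 with gRNA 2 (SE 0.17, adjusted p = 4.74e-08). These 4 genes lie in 1 run of the cluster. The whole cluster summed to 26.9 ± 1.53 CPM with gRNA 2 against 7.01 ± 0.749 in control and 12.7 ± 0.594 with gRNA 10. That sum also holds HOXC13, which lies outside the run and rose with both guides, so it does not give the size of the change of these 4 genes.

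HOXC13, at the tail end of that cluster, rose with both guides of PC3, from 69, 64 and 82 counts to 282, 299 and 277 with gRNA 2 (1.98, SE 0.11, adjusted p = 2.58e-16 in edgeR) and to 181, 212 and 186 with gRNA 10 (1.38, SE 0.12, adjusted p = 4.21e-12). HOXA13 fell with both, from 1859, 1939 and 1991 counts to 1774, 1718 and 1580 (fell by 0.20, SE 0.04, adjusted p = 0.000201) and to 1019, 1011 and 992 (fell by 0.98, SE 0.05, adjusted p = 5.59e-18), and the 3 groups did not overlap. HOXA11 rose by 0.34 and 0.72, from 167, 180 and 155 counts to 216, 206 and 221 and to 275, 289 and 290. HOXB9 had 1, 3 and 1 counts in control, 16, 11 and 18 with gRNA 2 and 5, 4 and 6 with gRNA 10, at least 4.93-fold higher with gRNA 2; with gRNA 10 the call (adjusted p = 0.0452 in edgeR) was lost under several alternatives. HOXD13 had 8, 6 and 7 counts in control and at most 2 in any PC3 knockout library, with no test since it did not pass the filter.

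Markers of other lineages also differed between the PC3 groups. The 4 endothelial markers summed to 3.18 to 3.87 CPM in control, 22.7 to 24.7 with gRNA 2 and 50.2 to 56.0 with gRNA 10, of which KDR and PECAM1 were detected while the defining markers VWF and CDH5 had at most 3 counts in every PC3 library. In 22Rv1 the 5 stromal markers summed to 0.669 to 1.51 CPM in control, 9.12 to 11.8 with gRNA 1 and 5.74 to 6.79 with gRNA 10, with 2 of 5 at 3 counts or fewer in each group. Their part in the HOX differences was not tested.

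**Figure D4:**
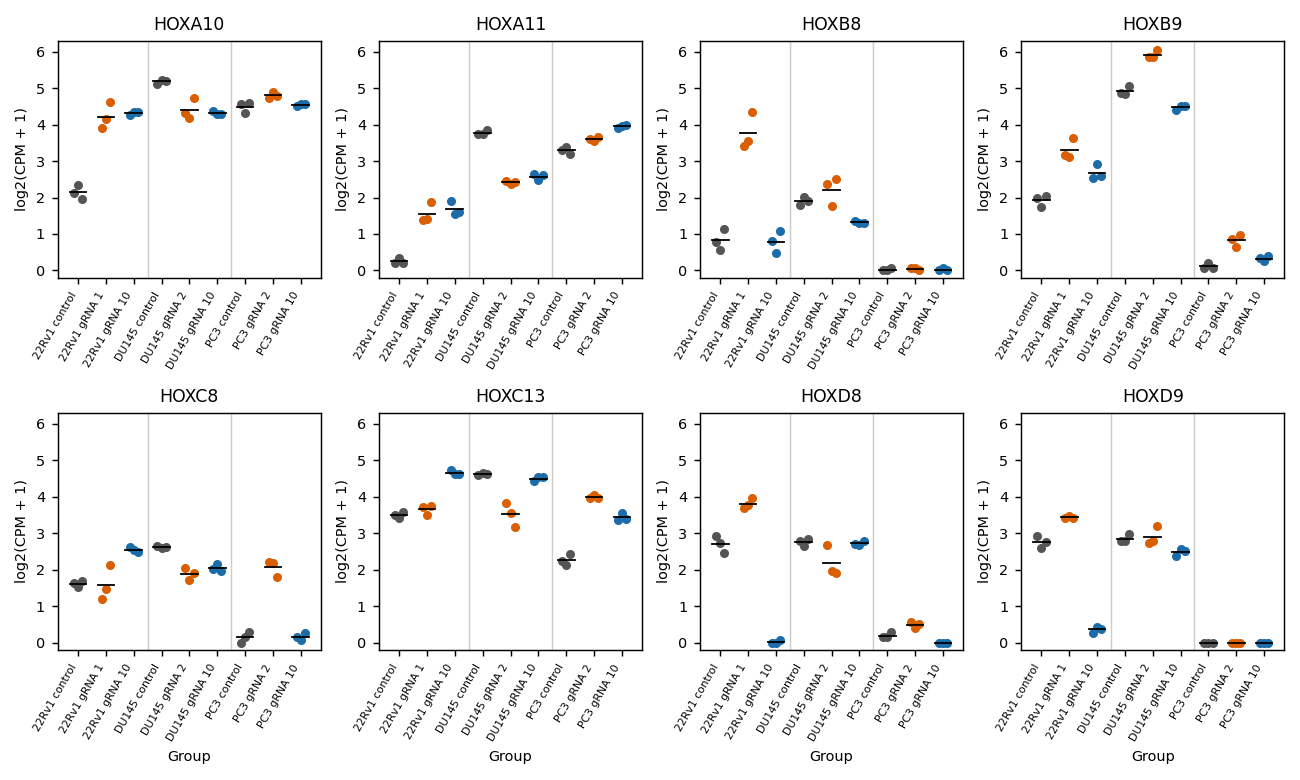
Level of 8 HOX genes as log2(CPM + 1), 1 dot per library and a bar at the group mean, in the 9 groups. HOXA10 and HOXA11 rise in 22Rv1 and fall in DU145, HOXB8 is high in 22Rv1 with gRNA 1 alone among the 22Rv1 groups, HOXC8 rises in PC3 with gRNA 2, and HOXD8 and HOXD9 fall to near 0 in 22Rv1 with gRNA 10.

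Whether the knockout change itself differed between lines was tested with the average of the guides set against control, in the fit of all libraries. Between DU145 and 22Rv1 it differed for 23 of 34 members, 3 with a higher and 20 with a lower change in DU145, where 44.3% of all genes differed (22.1% and 22.2%). Between PC3 and 22Rv1 it differed for 12 members, 5 higher and 7 lower, against 42.8% of all genes (21.0% and 21.9%), and between PC3 and DU145 for 14, 13 of them with a higher change in PC3, against 39.4% of all genes (20.0% higher and 19.4% lower). At 2-fold or more the counts were 16, 5 and 13, where 16.8%, 16.9% and 13.6% of all genes met that rule. HOXA10 had a difference of −3.26 between DU145 and 22Rv1 (SE 0.19, adjusted p = 5.11e-13 in edgeR), and HOXA11 a difference of −4.86 (SE 0.27, adjusted p = 8.97e-14). HOXA11 was near the floor of 3 counts in 22Rv1 control, and its rise in that line was fixed by the filter. Each of the 3 comparisons shares libraries with the others.

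The line could still be read from the HOX genes in every knockout library. By Euclidean distance over the 38 genes on the log2(CPM + 1) scale, 18 of 18 knockout libraries lay nearest to the control of their own line, at 2.44 to 7.15 against 10.8 to 12.8 for the nearest other control. The same held for 18 of 18 without HOXB13, and over all genes tested. The libraries farthest from their own control were those of 22Rv1, at 4.89 to 7.15 with gRNA 1 and 5.60 to 5.70 with gRNA 10, and the nearest those of PC3 with gRNA 10, at 2.44 to 2.48. The rank order of levels across the 38 genes, which share their libraries and are not independent, had a Spearman rho of 0.464 between 22Rv1 and DU145 controls, 0.397 between 22Rv1 and PC3, and 0.347 between DU145 and PC3. Between a control and its own knockout groups rho was 0.895 and 0.856 in 22Rv1, 0.961 and 0.977 in DU145, and 0.917 and 0.911 in PC3.

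The largest difference between control lines was above the largest difference of any guide from its control for 28 of the 34 members tested (82.4%), where this held for 74.5% of all genes; as above, this describes the members that passed the filter. The median of the largest line difference was 2.42 for the HOX genes and 1.12 for all genes on the log2(CPM + 1) scale, and that of the largest guide difference was 0.99 and 0.69. In the other 6, HOXA2, HOXB3, HOXB8, HOXC4, HOXD3 and HOXD8, the largest guide difference was the larger. By state, 12 members were on in all 9 groups, and 20 kept the same state in the control and both knockout groups of every line. A change from on to off or back was seen in 6 cases: HOXD8 in 22Rv1 with gRNA 10, HOXC9 in PC3 with gRNA 10, HOXD13 in PC3 with each guide, which went off, and HOXB9 in PC3 with each guide, which came on. In DU145 there was none by this rule, but at a level of at least 1 CPM HOXC5 went off with each guide there. The PC3 cases rest on at most 18 counts per library. States were not counted over all genes, so nothing is read from these numbers about how stable the HOX genes are.

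**Figure D5:**
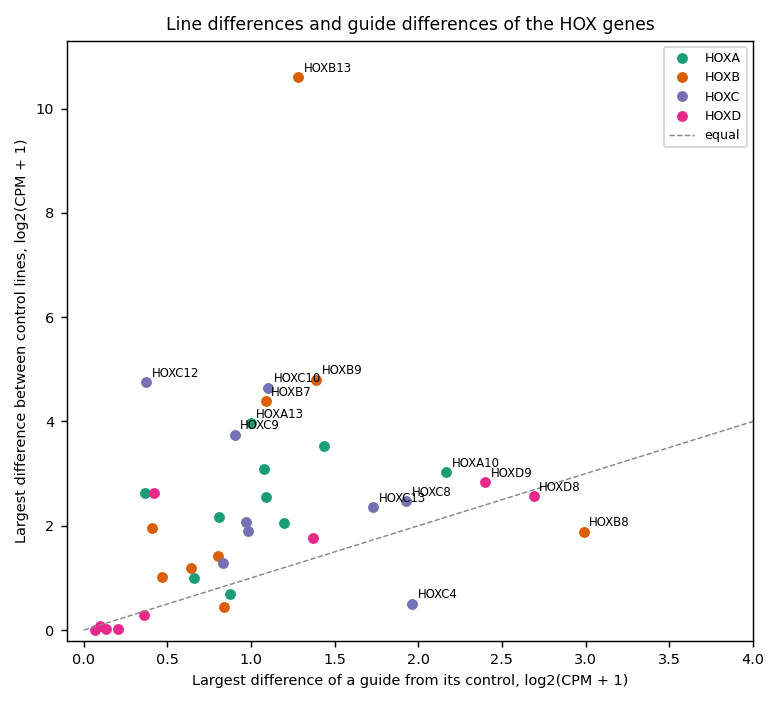
For 37 of the 38 HOX genes, tested or not, the largest difference between control lines (vertical) against the largest difference of a guide group from its own control (horizontal), both of group means of log2(CPM + 1), colored by cluster; the dashed line marks equality. HOXB13 lies highest, and HOXB8, HOXC4 and HOXD8 lie below the line.

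The DNA-binding partners of HOX proteins, the TALE homeodomain factors of the PBX, MEIS and PKNOX families, are given here as a list. Among them MEIS2 had 1, 2 and 1 counts in 22Rv1 control, 337, 345 and 332 in DU145 and 150, 131 and 171 in PC3. Of the TALE genes tested, 3 rose and 2 fell of 7 in 22Rv1 with gRNA 1, 1 and 1 of 7 with gRNA 10, 0 and 3 of 9 in DU145 with gRNA 2, 2 and 2 of 9 with gRNA 10, 1 and 1 of 8 in PC3 with gRNA 2 and 4 and 4 of 8 with gRNA 10. Of all genes, 48.5%, 40.6%, 34.0%, 40.0%, 63.6% and 73.5% changed in these comparisons, in the same order.

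Of 19 Polycomb subunits, which keep HOX genes silent, 10 rose and 6 fell in 22Rv1 with gRNA 1, 6 and 4 with gRNA 10, 1 and 4 in DU145 with gRNA 2, 2 and 4 with gRNA 10, 6 and 6 in PC3 with gRNA 2 and 10 and 4 with gRNA 10, where, in that order, 48.5%, 40.6%, 34.0%, 40.0%, 63.6% and 73.5% of all genes changed. CBX2, a reader of the Polycomb mark, rose from 23.5 ± 1.18 to 148 ± 4.33 CPM in PC3 with gRNA 10 (2.66, SE 0.05, adjusted p = 1.94e-28 in edgeR) and from 16.6 ± 2.13 to 53.4 ± 1.40 in 22Rv1 with gRNA 10, and fell from 28.9 ± 1.03 to 10.6 ± 0.822 in DU145 with gRNA 2. Of 14 Trithorax and MLL partners, which keep HOX genes active, 2 rose and 3 fell in 22Rv1 with gRNA 1, 5 and 1 with gRNA 10, 1 and 4 in DU145 with gRNA 2, 2 and 2 with gRNA 10, 7 and 2 in PC3 with gRNA 2 and 3 and 7 with gRNA 10, against the same shares of all genes. MLLT3 (AF9), a subunit of the super elongation complex, rose in PC3 from 0.620 ± 0.217 CPM to 6.96 ± 0.541 with gRNA 2 and 3.39 ± 0.204 with gRNA 10. Of 12 listed upstream regulators, 2 rose and 2 fell of 9 tested in 22Rv1 with gRNA 1, and 3 and 1 with gRNA 10. In DU145 0 and 2 of 10 did with gRNA 2, and 1 and 2 with gRNA 10. In PC3 4 and 2 of 8 did with gRNA 2, and 2 and 4 with gRNA 10, against the same shares of all genes. Among them RARG, a retinoic acid receptor, rose in 22Rv1 from 19.1 ± 1.27 CPM to 58.8 ± 6.23 and 68.2 ± 2.81. CYP26B1, which degrades retinoic acid, rose in PC3 from 1.20 ± 0.0585 CPM to 14.3 ± 0.474 and 5.33 ± 0.846 and fell in DU145 with gRNA 2 from 85.4 ± 0.516 to 30.4 ± 7.72.

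Non-coding RNAs of the clusters differed by line as well. HAGLR, an antisense RNA beside HOXD1, had 628, 622 and 650 counts in DU145 control, none in 22Rv1 and 7, 8 and 8 in PC3, and HOXD1 was likewise a DU145 gene. HOTTIP, beside HOXA13, was at 8.42 ± 1.21 CPM in PC3 control, against 0.345 in 22Rv1 and 0.438 in DU145, the order of HOXA13 in which PC3 stood highest. HOTAIR, transcribed between HOXC11 and HOXC12, had 85, 79 and 83 counts in DU145 control, 34, 35 and 13 with gRNA 2 and 33, 24 and 38 with gRNA 10. It fell by 1.52 and 1.32 on the log2 scale. The 13 counts are from gRNA 2 replicate 3, the library that stood apart, and no change without that library is given. Of 18 such RNAs, 3 rose and 0 fell of 9 tested in 22Rv1 with gRNA 1, 0 and 2 of 9 with gRNA 10, 1 and 6 of 12 in DU145 with gRNA 2, 0 and 6 of 12 with gRNA 10, 7 and 0 of 10 in PC3 with gRNA 2 and 5 and 3 of 10 with gRNA 10. The shares of all genes that changed were, in that order, 48.5%, 40.6%, 34.0%, 40.0%, 63.6% and 73.5%. PRAC1, beside HOXB13 and named for its expression in prostate and colon, had 150, 107 and 127 counts in 22Rv1 control, none in any DU145 library and 1152, 1002 and 1080 in PC3, the same order of lines as HOXB13. With gRNA 10 it fell by 1.06 in PC3 and by 0.59 in 22Rv1, but with gRNA 2 in PC3 it stood at 65.2 ± 3.25 CPM against 57.3 ± 4.18 in control, where HOXB13 had fallen. Of 18 listed genes beside the clusters, 5 rose and 1 fell of 17 tested in 22Rv1 with gRNA 1, and 7 and 3 with gRNA 10. In DU145 4 and 6 of 15 did with gRNA 2, and 3 and 2 with gRNA 10. In PC3 7 and 4 of 16 did with gRNA 2, and 6 and 4 with gRNA 10, against the same shares of all genes.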

How the data were processed

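Total RNA of 22Rv1, DU145 and PC3 cells was made into strand-specific mRNA libraries and sequenced as paired reads of 150 bases, per the labels' protocols. What the authors deposited for each line is 1 file of unnormalized counts by gene symbol. The submitters' processing notes name hg38, FastQC, STAR and edgeR, without roles; the counting program, the annotation and the strand setting are not given in the sources used here. Groups and replicate numbers came from the sample titles. The tables were joined by symbol, with 0 where a symbol was missing. Control lines, and guide effects between lines, were compared in 1 fit of all 27 libraries (17356 genes), and guides within a line in the fit of its 9 libraries (15198, 14908 and 14718 genes), with edgeR 4.0.16 in R 4.3.3 (TMM scaling, filterByExpr at 10 counts and 15 in total, robust quasi-likelihood F test, Benjamini-Hochberg adjustment over all genes tested, threshold 0.05). The steps were tested on simulated data. Exon lengths came from GENCODE 29.

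The members and lists were chosen with earlier results of these data known. Members named with values were HOXB13, the 3 highest per kilobase in each control, members off in one control with at least 5 CPM in another, members that changed at least 2-fold past the threshold with a mean of at least 50 counts in the higher group, and members that switched state. HOXA5 and HOXA9, and among genes outside the clusters LNPK, HAGLR, HOTTIP and PRAC1, were chosen after their values were seen. Floors of 3 counts cover counting error only. Alternatives were other scalings and filters, DESeq2 1.42.0, a replicate block, fewer libraries and each library left out. Depth was 17958558 to 20650819 counts per library. Values of some genes are not reported here, though they enter the counts and sums.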

Additional observations from a re-analysis of the deposited data

Results flagged for a closer look

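The change with the RIPK2 guides, taken as the mean of both guides against control, was compared between lines by a test of the difference itself in edgeR. It differed for 23 of 34 HOX genes between DU145 and 22Rv1, for 12 between PC3 and 22Rv1 and for 14 between PC3 and DU145. These were 67.6%, 35.3% and 41.2% of the HOX genes tested, where 44.3%, 42.8% and 39.4% of all genes differed, in the same order. HOXA3, HOXA10, HOXA11 and HOXC9 were called higher with both guides in 22Rv1 and lower with both in DU145, but the HOXC9 call with gRNA 1 in 22Rv1 (adjusted p = 0.0406) and the HOXA3 call with gRNA 2 in DU145 (adjusted p = 0.0491) were lost under most alternatives tried. The difference between those lines was −1.68 for HOXA3 (SE 0.19, adjusted p = 6.69e-08), −3.26 for HOXA10 (SE 0.19, adjusted p = 5.11e-13), −4.86 for HOXA11 (SE 0.27, adjusted p = 8.97e-14) and −1.44 for HOXC9 (SE 0.20, adjusted p = 1.48e-06) in edgeR. HOXA3 and HOXA11 were also higher with both guides in PC3, and their change differed between PC3 and DU145 by 1.26 (SE 0.19, adjusted p = 7.97e-06) and 1.97 (SE 0.16, adjusted p = 2.4e-10). These 6 differences kept their direction and stayed past the threshold under the alternatives that gave a value; with at least 10 counts required in every library, those of HOXA11 and HOXC9 had none, since these genes were not tested there. The comparisons between lines share libraries. These genes were named because their calls were opposed in these same libraries, so the tests of the difference are not separate support. HOXA11 was near the floor of 3 counts in 22Rv1 control and passed the filter of that line only through the knockout groups. Its rise there was fixed by the filter.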

How the results depend on the processing

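No call reversed under any alternative. With genes required to have at least 10 counts in every library, only 10 HOX genes were tested in the fit of all libraries, and 9, 7 and 10 of them differed between controls (DU145 and 22Rv1, PC3 and 22Rv1, PC3 and DU145), while the guide effect differed for 9, 7 and 5. In PC3 that filter left 13 members, of which 11 changed with gRNA 2 and 9 differed between guides. The count between the guides of DU145, 10 in the reported fit, was 6 with the compared libraries alone. At a level of at least 1 CPM, 11 members were on in PC3 control, and the switches with a guide numbered 17, or 12 with more than 10 counts.

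With 1 library left out at a time, the counts between controls ranged from 28 to 31, 25 to 26 and 30 to 33, and those of the guide effect from 22 to 25, 10 to 14 and 13 to 15. In 22Rv1 they ranged from 16 to 21 with gRNA 1, 16 to 22 with gRNA 10 and 13 to 21 between guides, in DU145 from 10 to 13, 9 to 16 and 6 to 11, and in PC3 from 18 to 20, 12 to 15 and 15 to 18. The lowest DU145 value between guides, 6, came without gRNA 10 replicate 1 or replicate 3.

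Same-numbered libraries had correlations of −0.189 to 0.339, so the numbers were not taken to pair libraries. With a replicate block the counts between controls were 28, 24 and 30, those of the guide effect 24, 12 and 14, and those with the first guide, gRNA 10 and between guides 20, 20 and 17 in 22Rv1, 12, 12 and 8 in DU145 and 18, 12 and 15 in PC3.

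Of 4679 alternative values for single genes, 4533 kept their direction and side of the threshold, 101 lost a call and 45 gained one. For a member near the floor of 3 counts, a difference is limited by depth.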
